A study of Mus musculus with 20 samples.

Results

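The 8 genes described here encode proteins that act beside Toll-like receptors in ligand binding, exit from the endoplasmic reticulum or signalling from endosomes. Among them, Cd180 and Ly86 encode a TLR4-like pair of their own. All 8 were chosen by name for these roles, with earlier results of these data known. They comprise the co-receptor Cd14, the receptor subunits Ly96 (MD-2), Ly86 (MD-1) and Cd180 (RP105), the chaperones Unc93b1 and Cnpy3, and the endosomal transporters Slc15a3 and Slc15a4. Each of the 8, all protein-coding, was found among the 14776 genes deposited for epididymal white adipose tissue (eWAT). Tlr4, Tlr7, Tlr8 and Tlr13, which encode receptors that such proteins serve, were set beside them.

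The study asked how Ramulus Mori (Sangzhi) alkaloids (SZ-A), an extract of mulberry twig, act on lipid metabolism and inflammation in the fat of obese mice. Male C57BL/6J mice entered at 6 weeks of age. NC mice ate normal chow. HFD mice ate a high-fat diet (60% of energy as fat) for 14 weeks, followed by 6 more weeks of the diet with saline. SZ-A mice ate the same diet throughout and received SZ-A by gavage at 400 mg/kg a day over those last 6 weeks. The labels hold 6 NC, 7 HFD and 7 SZ-A libraries, 1 per mouse, although the paper states 7 mice in each group.

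Toll-like receptors sense microbial products and some products of damaged cells. On the cell surface, CD14 hands lipopolysaccharide to MD-2, which is bound to TLR4, whereas RP105 and MD-1 form a TLR4-like pair with no signalling domain that is known best from B cells and also restrains TLR4 in myeloid cells. Inside the cell, CNPY3 helps several receptors to fold, UNC93B1 escorts the nucleic acid sensors TLR3, TLR7, TLR8, TLR9 and TLR13 to endosomes, and the histidine and peptide transporters SLC15A3 and SLC15A4 act at endosomal and lysosomal membranes, where SLC15A4 is required for signalling by TLR7 and TLR9 in some immune cells. In fat, macrophages hold much of this machinery, and their number in eWAT is known to grow with obesity.

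The bases before the transcription start of 3 accessory genes and of Tlr13 are shown because Cd180 and Ly86 encode partners of one complex, Cnpy3 is the accessory gene that moved least, and Tlr13 was the gene most like Cd180 across the mice. They come from RefSeq (GRCm38.p6), where windows were found for 4 of the 8 accessory genes and 2 of the 4 receptors, and only bases outside annotated exons are given. Capitals mark GAGGAA (the core bound by PU.1, a factor of myeloid and B cells) and CACGTG (the E-box) on either strand. The Cd180 stretch is chr13:102693297-102693546 on the plus strand, that of Ly86 chr13:37345095-37345207 on the plus strand, that of Cnpy3 chr17:46752215-46752464 on the minus strand and that of Tlr13 chrX:106143025-106143203 on the plus strand.
Cd180: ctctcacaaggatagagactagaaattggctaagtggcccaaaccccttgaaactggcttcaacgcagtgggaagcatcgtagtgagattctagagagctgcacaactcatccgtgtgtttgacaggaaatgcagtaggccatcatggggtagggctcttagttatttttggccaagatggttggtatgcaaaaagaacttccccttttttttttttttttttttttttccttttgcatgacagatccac
Ly86: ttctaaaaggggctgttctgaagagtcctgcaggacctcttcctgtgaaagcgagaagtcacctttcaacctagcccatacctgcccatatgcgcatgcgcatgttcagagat
Cnpy3: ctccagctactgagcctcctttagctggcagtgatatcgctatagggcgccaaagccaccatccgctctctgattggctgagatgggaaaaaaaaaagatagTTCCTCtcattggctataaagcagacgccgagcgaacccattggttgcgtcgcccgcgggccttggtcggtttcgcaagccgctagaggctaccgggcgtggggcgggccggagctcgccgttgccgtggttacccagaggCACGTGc
Tlr13: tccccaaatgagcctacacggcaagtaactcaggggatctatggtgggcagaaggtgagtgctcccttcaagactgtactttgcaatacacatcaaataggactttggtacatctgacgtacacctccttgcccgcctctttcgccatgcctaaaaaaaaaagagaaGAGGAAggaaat

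The letters GAGGAA were found on either strand in 28.3% of all 32851 windows of 300 bases, and CACGTG in 7.15%. The interferon response element (GAAA, 2 bases of any kind, GAAA) was in 3.44% of windows and in 0 of those of Cd180, Ly86, Cnpy3, Tlr8 and Tlr13. The window of Slc15a4 lies within the bounds of the gene, in an exon annotated on the other strand, and nothing is read from it. GAGGAA stood in the windows of Cnpy3, Tlr8 and Tlr13, and CACGTG in that of Cnpy3. The windows of Cd180 and Ly86 held neither of these exact runs of letters, and other forms of the PU.1 site were not searched.

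Some libraries stood apart. Of 12 markers of epididymis and epithelium, 4 were analysed (Cdh1, Krt18, Spint2 and Adgrg2). The others, among them Lcn5, Lcn8, Crisp1 and Defb42, were not analysed. The 4 summed to 40.9 to 1182 FPKM in NC mice, 4.08 to 7.72 in HFD mice and 6.50 to 318 in mice given SZ-A. In 5 mice the sum was above 200 FPKM (NC replicates 1, 2 and 6 and SZ-A replicates 2 and 7). In NC replicate 6 the adipocyte gene Adipoq was at 26.6 FPKM, against a group median of 1482. Mitochondrial genes took 3.30% to 8.35% of the reads in NC mice, 1.67% to 2.92% in HFD mice, which did not overlap with NC, and 1.67% to 11.6% in SZ-A mice, with SZ-A replicate 5 highest. The part of this difference in the comparisons of HFD with NC was not tested. The labelled tissue was checked with 8 adipocyte markers, which summed to 257 FPKM in NC replicate 6 and to at least 2009.9 FPKM in each HFD and SZ-A mouse. Between 13565483 and 19383935 reads were recovered per mouse. FPKM is the number of fragments per kilobase of transcript scaled to the mapped fragments of a library. Groups were compared with limma on log2(FPKM + 1) with Benjamini-Hochberg adjustment over all genes tested, and log2 fold changes are on that scale, which understates changes of low genes.

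Most of these genes were up-regulated in HFD mice and down-regulated in SZ-A mice relative to HFD mice, with Cd180 and Slc15a3 at the top of the range and Cnpy3 at its foot. Between HFD and NC mice, 6 of the 8 accessory genes rose at an adjusted p under 0.05, where 21.0% of all genes tested rose by that rule, and 5 of them also passed a log2 fold change of 1.5, where 5.43% of all genes did. The groups did not overlap for 6 of the 8, all higher in HFD, against 12.7% of all genes. Between SZ-A and HFD mice, 6 of the 8 fell, against 13.3% of all genes, and 1 of them, Cd180, fell by more than 1.5, against 0.558% of all genes. In 3 of the 8 (Cd14, Cd180 and Ly86) each SZ-A mouse was below each HFD mouse, against 4.01% of all genes. Both comparisons use the same 7 HFD mice, so their opposite directions are not independent of each other.

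The median log2 fold change over the 8 genes was 2.13 in HFD against NC and -1.11 in SZ-A against HFD, beside -0.04 and 0.03 over all genes tested. SZ-A mice were still above NC mice in 4 of the 8 genes (Cd180, Slc15a3, Unc93b1 and Ly86) at an adjusted p under 0.05, against 4.15% of all genes, and the first 3 of these passed a log2 fold change of 1.5, against 1.73%. The groups did not overlap for those 4 genes, against 3.22% of all genes. Without the 5 mice high in epithelium markers, an alternative chosen after seeing the data, 7 of the 8 rose in HFD against NC, beside 21.4% of all genes tested at that setting, 5 fell in SZ-A against HFD, beside 14.0%, and Cd180 and Slc15a3 were the 2 of 8 that were higher in SZ-A than in NC, beside 0.885%. These are bulk tissue libraries, in which fewer cells of a type and less RNA per cell cannot be told apart.

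**Figure D1:**
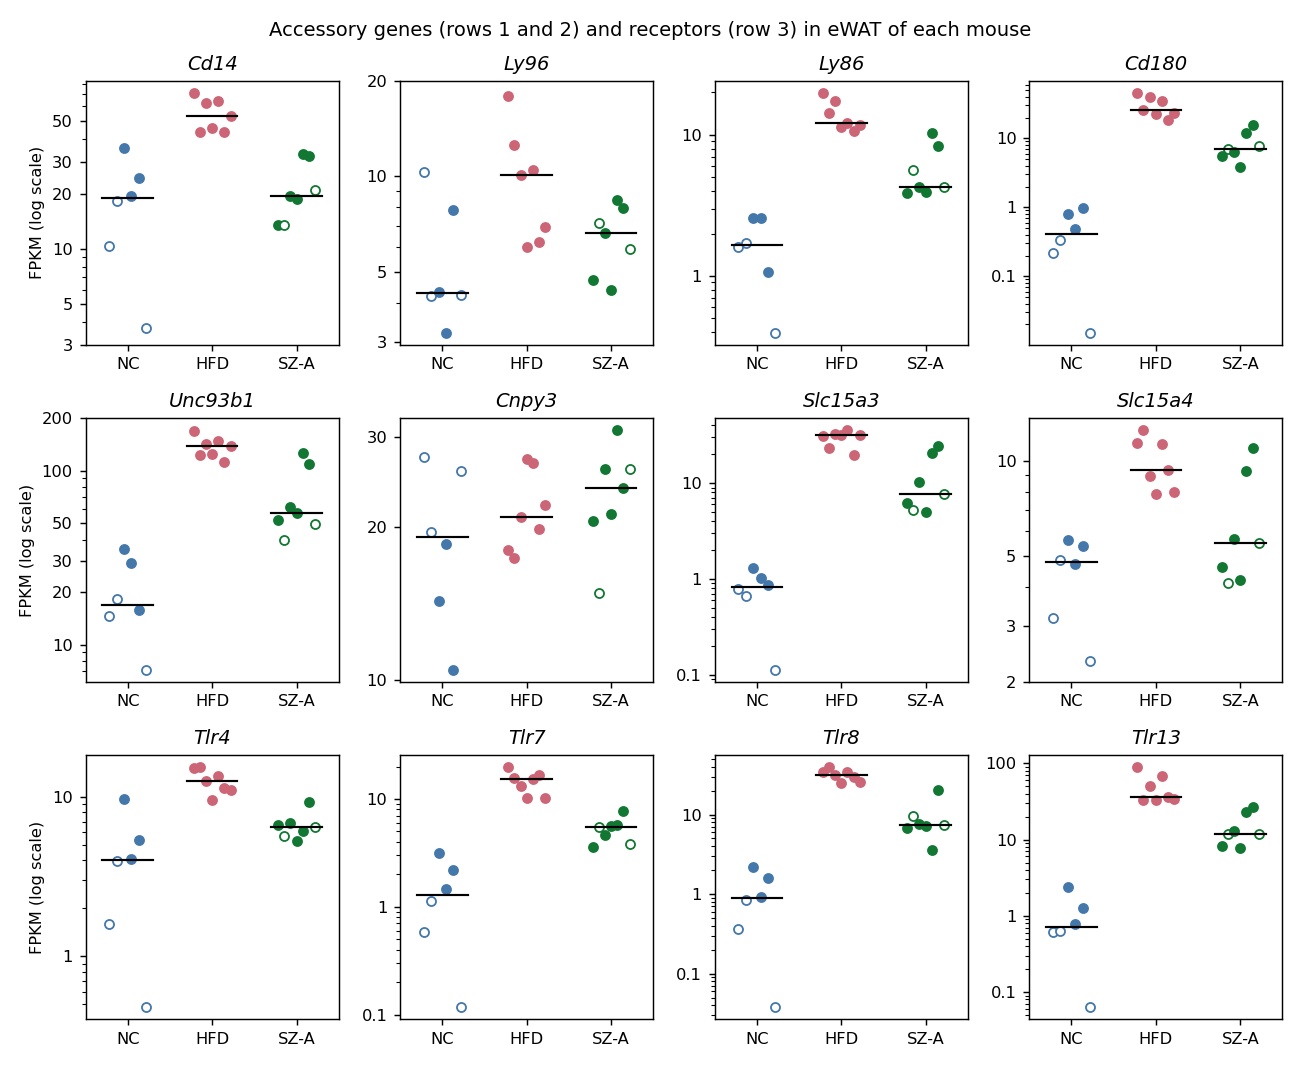
FPKM on a log scale of the 8 accessory genes and 4 receptors in each of the 20 mice (points), with the group median (line); open points are the 5 mice with over 200 FPKM summed over epithelium markers. Cd180 and Slc15a3 lay near or below 1 FPKM in NC and above 18 FPKM in HFD mice, and Cnpy3 overlapped in all 3 groups.

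Cd14, the co-receptor that binds lipopolysaccharide and passes it on, ranged from 3.71 to 35.4 FPKM among NC mice with a median of 18.9, from 43.3 to 71.2 among HFD mice with a median of 52.9, and from 13.5 to 33.1 among SZ-A mice with a median of 19.4. Each HFD mouse was above each NC mouse and each SZ-A mouse, while SZ-A and NC mice overlapped. Its means were 18.6 ± 11.0 FPKM (SD, n = 6) for NC, 54.8 ± 11.4 (n = 7) for HFD and 21.6 ± 8.08 (n = 7) for SZ-A. Cd14 rose in HFD against NC by a log2 fold change of 1.74 ± 0.37 (SE, limma adjusted p = 0.0023) and fell in SZ-A against HFD by 1.35 ± 0.21 (limma adjusted p = 8.2e-04). Between SZ-A and NC the difference was 0.39 with a 95% interval of -0.48 to 1.25 (limma adjusted p = 0.64). The rise depended in size on the NC mice: it was 1.38 without NC replicate 6 and 1.05 without the mice high in epithelium markers, still past an adjusted p of 0.05 but under 1.5. The difference between SZ-A and NC turned to -0.20 without those mice (limma adjusted p = 0.76).

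Ly96 (chr1:16688051-16709611 on the plus strand, GRCm38 with GENCODE M21) encodes MD-2, the subunit of TLR4 that holds the lipid of lipopolysaccharide. It ranged from 3.21 to 10.3 FPKM among NC mice with a median of 4.28, from 5.99 to 17.9 among HFD mice with a median of 10.1, and from 4.40 to 8.43 among SZ-A mice with a median of 6.66, on 60 to 282 reads. All 3 groups overlapped, and NC replicate 1 lay just above the HFD median. The log2 fold change of Ly96 was 0.73 ± 0.28 in HFD against NC, at an adjusted p (limma) that was just over 0.05, and -0.51 ± 0.22 in SZ-A against HFD, with a 95% interval of -0.97 to -0.05 (limma adjusted p = 0.10). The adjusted p for HFD against NC fell below 0.05 when NC replicate 1, NC replicate 5, or HFD replicate 4, 6 or 7 was left out and in 5 other alternatives, and reached 0.11 at most when a single mouse was left out. The smallest two-sided p of an exact permutation test was 5.8e-04 in each comparison here. By the exact permutation test Ly96 gave p = 0.035 and p = 0.049 before any adjustment.

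Tlr4 itself ranged from 0.482 to 9.75 FPKM among NC mice with a median of 4.03, from 9.51 to 15.3 among HFD mice with a median of 12.5, and from 5.32 to 9.32 among SZ-A mice with a median of 6.43. NC replicate 3 reached into the HFD range, and each SZ-A mouse was below each HFD mouse. Tlr4 rose by 1.64 ± 0.36 in HFD against NC (limma adjusted p = 0.0026) and fell by 0.84 ± 0.13 in SZ-A against HFD (limma adjusted p = 8.1e-04), a call that was lost with all 3 groups in one fit (limma adjusted p = 0.060). The ratio of Cd14 to Tlr4 within a mouse is a direct comparison of the co-receptor with its receptor. Its mean log2 was 2.36 in NC mice, 2.11 in HFD mice and 1.65 in SZ-A mice. It differed by -0.25 between HFD and NC (exact permutation test, adjusted p = 0.29) and by -0.46 between SZ-A and HFD (exact permutation test, adjusted p = 0.062), neither past 0.05 over the 36 ratio tests made. The first turned to 0.01 without the mice high in epithelium markers and to 0.11 with a pseudocount of 1. The second fell below 0.05 without HFD replicate 2, without SZ-A replicate 5 and with a pseudocount of 1. Between SZ-A and NC it was lower by 0.71 (exact permutation test, adjusted p = 0.025), a call that was lost without NC replicate 6, without the mice high in epithelium markers and with a pseudocount of 1.

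Cd180 (chr13:102693558-102739629 on the plus strand) encodes RP105, a TLR4-like surface protein. It ranged from 0.0152 to 0.979 FPKM among NC mice with a median of 0.409, from 18.4 to 45.4 among HFD mice with a median of 25.4, and from 3.81 to 15.8 among SZ-A mice with a median of 6.89. The 3 groups formed separate bands, NC lowest and HFD highest, with no overlap between any of them. Means were 0.470 ± 0.360 FPKM (SD, n = 6) for NC, 29.9 ± 10.1 (n = 7) for HFD and 8.29 ± 4.12 (n = 7) for SZ-A. The log2 fold change was 4.37 ± 0.22 in HFD against NC (limma adjusted p = 1.9e-08), -1.78 ± 0.26 in SZ-A against HFD (limma adjusted p = 7.2e-04) and 2.58 ± 0.27 in SZ-A against NC (limma adjusted p = 2.1e-04). NC mice held between 1 and 84 reads of Cd180 and HFD mice between 1477 and 3243. Of its exon bases, 4.04% overlap Mast4 on the other strand, and Mast4 was at means of 1.29 FPKM in NC and 1.43 FPKM in HFD (limma adjusted p = 0.57). The library kit is not stated to keep strand, so reads from such overlaps cannot be told apart.

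Ly86 (chr13:37345208-37419036 on the plus strand) encodes MD-1, the partner without which RP105 is poorly displayed on the cell surface. It ranged from 0.397 to 2.59 FPKM among NC mice with a median of 1.66, from 10.6 to 19.8 among HFD mice with a median of 12.2, and from 3.89 to 10.3 among SZ-A mice with a median of 4.30. As for Cd180, the 3 groups did not overlap, but they stood closer together. Ly86 rose by 2.52 ± 0.22 in HFD against NC (limma adjusted p = 1.4e-06), fell by 1.17 ± 0.21 in SZ-A against HFD (limma adjusted p = 0.0017) and was higher by 1.35 ± 0.26 in SZ-A than in NC (limma adjusted p = 0.0096). The last difference was 1.17 without the mice high in epithelium markers, at an adjusted p (limma) of 0.12, and the call was lost.

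The RP105 pair changed by unequal amounts. The mean log2 ratio of Ly86 to Cd180 was 2.37 in NC, where it ran from 0.13 to 4.70, -1.07 in HFD and -0.47 in SZ-A mice. In FPKM, Ly86 was above Cd180 in each NC mouse and below it in each HFD mouse. This ratio was lower by 3.44 in HFD than in NC (exact permutation test, adjusted p = 0.0019), and in SZ-A against HFD it was higher by 0.60 (exact permutation test, adjusted p = 0.0098). The highest NC value rests on 1 read of Cd180 in NC replicate 6. The log2 ratio of Cd180 to Tlr4 was higher by 4.62 in HFD than in NC and was lower by 0.99 in SZ-A than in HFD (exact permutation tests, adjusted p = 0.0019 and 0.0090). Its lowest NC value, -4.98, rests on the same single read. Both differences between HFD and NC are smaller with a pseudocount of 1. On that scale Cd180 rose by 4.37, Ly86 by 2.52 and Tlr4 by 1.64.

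**Figure D2:**
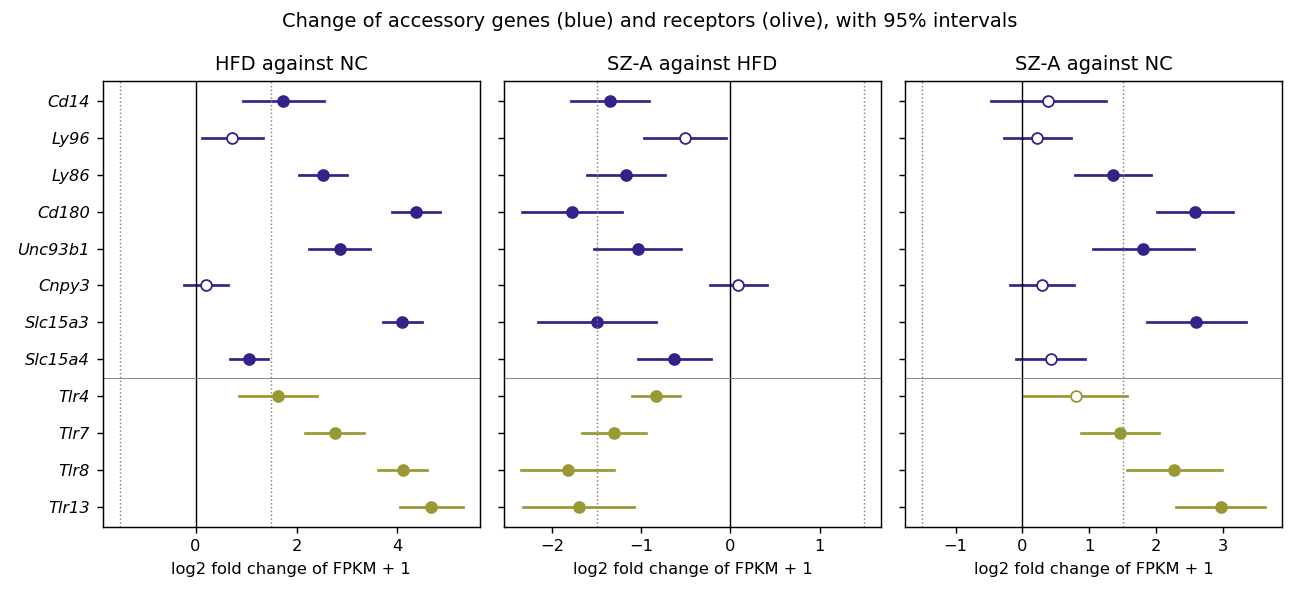
Log2 fold change of FPKM + 1 with its 95% interval (limma) for the 8 accessory genes (indigo) and 4 receptors (olive) in 3 comparisons; filled points have an adjusted p under 0.05 and dotted lines mark 1.5 in either direction. In HFD against NC the values run from 0.21 for Cnpy3 to 4.67 for Tlr13, and in SZ-A against HFD from -1.83 for Tlr8 to 0.09 for Cnpy3.

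Among the chaperones, Unc93b1, the escort of nucleic acid sensors, was the most abundant accessory gene in HFD and SZ-A mice. It lies at chr19:3935186-3949340 on the plus strand. It ranged from 7.15 to 35.6 FPKM among NC mice with a median of 17.0, from 111 to 168 among HFD mice with a median of 138, and from 39.7 to 126 among SZ-A mice with a median of 57.3. HFD mice were all above NC mice, and SZ-A mice were all above NC mice too, with SZ-A replicates 5 and 6 at 126 and 109.6 FPKM at or near the HFD range. Means were 20.1 ± 10.4 FPKM (SD, n = 6) for NC, 136 ± 18.8 (n = 7) for HFD and 70.8 ± 33.1 (n = 7) for SZ-A. Unc93b1 rose by 2.85 ± 0.28 in HFD against NC (limma adjusted p = 4.0e-06) and fell by 1.04 ± 0.23 in SZ-A against HFD (limma adjusted p = 0.0055). It was higher by 1.81 ± 0.35 in SZ-A than in NC (limma adjusted p = 0.0097), and by 1.54 without the mice high in epithelium markers, where the call was lost (limma adjusted p = 0.072).

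The sensors that UNC93B1 carries were also lowest in NC and highest in HFD mice. Tlr7 ranged from 0.118 to 3.17 FPKM among NC mice with a median of 1.29, from 10.2 to 19.7 among HFD mice with a median of 15.5, and from 3.61 to 7.74 among SZ-A mice with a median of 5.47. Tlr8 ranged from 0.0383 to 2.22 FPKM among NC mice with a median of 0.882, from 24.8 to 39.2 among HFD mice with a median of 31.4, and from 3.54 to 20.5 among SZ-A mice with a median of 7.42. Tlr13, a receptor of mice for bacterial ribosomal RNA, ranged from 0.0638 to 2.40 FPKM among NC mice with a median of 0.704, from 33.2 to 88.8 among HFD mice with a median of 35.9, and from 7.84 to 26.4 among SZ-A mice with a median of 11.8. For each of these 3 receptors the 3 groups did not overlap. Their log2 fold changes in HFD against NC were 2.76 ± 0.27, 4.10 ± 0.23 and 4.67 ± 0.29 (limma adjusted p = 3.9e-06, 3.4e-08 and 7.9e-08), and in SZ-A against HFD -1.31 ± 0.17, -1.83 ± 0.25 and -1.70 ± 0.29 (limma adjusted p = 3.3e-04, 4.1e-04 and 0.0014).

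Of the 12 ratios tested, 8 passed in each of the 3 comparisons. Such a test can pass for any 2 genes that changed by unequal amounts. The share of other gene pairs that would pass was not computed. The log2 ratio of Ly96 to Tlr4 passed in none of the comparisons. It differed by -1.24 in HFD against NC and by 0.36 in SZ-A against HFD (exact permutation tests, adjusted p = 0.12 and 0.11). In SZ-A against NC the difference was -0.88 (exact permutation test, adjusted p = 0.29). The log2 ratio of Unc93b1 to its client was lower in HFD than in NC for Tlr8 by 2.81 and for Tlr13 by 3.26 (exact permutation tests, adjusted p = 0.0019 for each), with no overlap between groups. For Tlr7 the difference of -0.94 missed the threshold (exact permutation test, adjusted p = 0.055) and passed it without NC replicate 3 or NC replicate 5. With a pseudocount of 1 the differences for Tlr8 and Tlr13 were -1.25 and -1.82, and that of Tlr7 turned to 0.09. In SZ-A against HFD mice the ratio was higher by 0.91 for Tlr8 and by 0.73 for Tlr13 (exact permutation tests, adjusted p = 0.014 and 0.0099). The ratio to Tlr8 was highest in SZ-A replicate 5, where Tlr8 was lowest of its group, and the difference was 0.56 without that mouse (exact permutation test, adjusted p = 0.024). For Tlr7 the difference was 0.41 (exact permutation test, adjusted p = 0.12), and it passed without SZ-A replicate 2 and without the mice high in epithelium markers. In FPKM, Unc93b1 exceeded Tlr13 in each mouse of each group, with mean log2 ratios of 4.83 in NC mice, 1.57 in HFD mice and 2.29 in SZ-A mice.

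Cnpy3 (chr17:46735705-46752214 on the minus strand), the folding chaperone of several receptors, ranged from 10.5 to 27.3 FPKM among NC mice with a median of 19.0, from 17.4 to 27.1 among HFD mice with a median of 20.9, and from 14.8 to 30.9 among SZ-A mice with a median of 23.8. All 3 groups overlapped, and the highest and lowest single mice were in SZ-A and NC. The log2 fold change was 0.21 in HFD against NC with a 95% interval of -0.23 to 0.64 (limma adjusted p = 0.44) and 0.09 in SZ-A against HFD with an interval of -0.23 to 0.41 (limma adjusted p = 0.70). Without the mice high in epithelium markers, Cnpy3 was higher in HFD than in NC by 0.57 and passed the threshold (limma adjusted p = 0.027). The log2 ratio of Cnpy3 to Tlr4 was lower in HFD than in NC by 1.86 (exact permutation test, adjusted p = 0.026). In SZ-A it was higher than in HFD by 1.02 (exact permutation test, adjusted p = 0.0048). Between SZ-A and NC the ratio differed by -0.84 (exact permutation test, adjusted p = 0.35). Tlr4 itself changed by 1.64 in HFD against NC and by -0.84 in SZ-A against HFD, beside 0.21 and 0.09 for Cnpy3. Hsp90b1 encodes gp96, the chaperone that CNPY3 assists, and was named here after its values were seen. The log2 fold changes of Hsp90b1 were 0.25 in HFD against NC and -0.15 in SZ-A against HFD (limma adjusted p = 0.56 and 0.55).

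Slc15a3 (chr19:10839727-10859362 on the plus strand), a transporter of histidine and small peptides in endolysosomes, ranged from 0.112 to 1.29 FPKM among NC mice with a median of 0.826, from 19.5 to 35.8 among HFD mice with a median of 32.0, and from 5.05 to 24.7 among SZ-A mice with a median of 7.69. NC mice lay far below all others. HFD and SZ-A mice overlapped in that SZ-A replicates 5 and 6, at 20.6 and 24.7 FPKM, lay above the lowest HFD mouse. Slc15a3 rose by 4.10 ± 0.18 in HFD against NC (limma adjusted p = 1.1e-08), fell by 1.499 ± 0.31 in SZ-A against HFD (limma adjusted p = 0.0040) and was higher by 2.60 ± 0.35 in SZ-A than in NC (limma adjusted p = 9.8e-04). The fall passed 1.5 in 5 of the fits that left out a single mouse (HFD replicate 2, HFD replicate 6, SZ-A replicate 3, SZ-A replicate 5, SZ-A replicate 6), up to 1.71 without SZ-A replicate 6. Of its exon bases, 28.1% overlap Tmem132a on the other strand. Tmem132a was at 1.62 to 7.13 FPKM with a median of 2.63 in NC, at 6.76 to 11.1 FPKM with a median of 8.96 in HFD and at 3.77 to 19.7 FPKM with a median of 5.28 in SZ-A mice, with a log2 fold change of 1.29 in HFD against NC (limma adjusted p = 8.2e-04) and of -0.44 in SZ-A against HFD (limma adjusted p = 0.27). Its part in the values of Slc15a3 was not tested.

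Slc15a4 (chr5:127595664-127632897 on the minus strand), the paralogue required for endosomal signalling in some immune cells, ranged from 2.33 to 5.63 FPKM among NC mice with a median of 4.78, from 7.84 to 12.5 among HFD mice with a median of 9.35, and from 4.11 to 11.0 among SZ-A mice with a median of 5.50. Each HFD mouse was above each NC mouse, whereas SZ-A mice spread over both ranges, replicates 5 and 6 highest. Slc15a4 rose by 1.05 ± 0.18 in HFD against NC (limma adjusted p = 3.6e-04) and fell by 0.63 ± 0.19 in SZ-A against HFD (limma adjusted p = 0.030). The fall did not hold up against single mice: its adjusted p (limma) rose to between 0.05 and 0.064 when 1 mouse was left out from among HFD replicates 1, 2 and 5 and SZ-A replicates 1, 3, 4 and 7, and was 0.082 without the mice high in epithelium markers. Of its exon bases, 8.04% overlap Gm43474 on the other strand, which was not analysed here. The difference between SZ-A and NC was 0.42 with a 95% interval of -0.09 to 0.94 (limma adjusted p = 0.36).

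The transporters changed places. The mean log2 ratio of Slc15a3 to Slc15a4 was -2.70 in NC mice, 1.56 in HFD mice and 0.67 in SZ-A mice. Slc15a4 was the more abundant of the pair in FPKM in each NC mouse and Slc15a3 in each HFD and SZ-A mouse. The ratio was higher by 4.27 in HFD than in NC and lower by 0.89 in SZ-A than in HFD (exact permutation tests, adjusted p = 0.0019 and 0.0099). Against Tlr7, Slc15a3 was higher by 1.63 in HFD than in NC, whereas Slc15a4 was lower by 2.64 (exact permutation tests, adjusted p = 0.0048 and 0.0019). In SZ-A against HFD mice, the ratio of Slc15a4 to Tlr7 was higher by 0.75 (exact permutation test, adjusted p = 0.013). The ratio of Slc15a3 to Tlr7 differed by -0.15 (exact permutation test, adjusted p = 0.71), and by 0.02 without the mice high in epithelium markers.

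**Figure D3:**
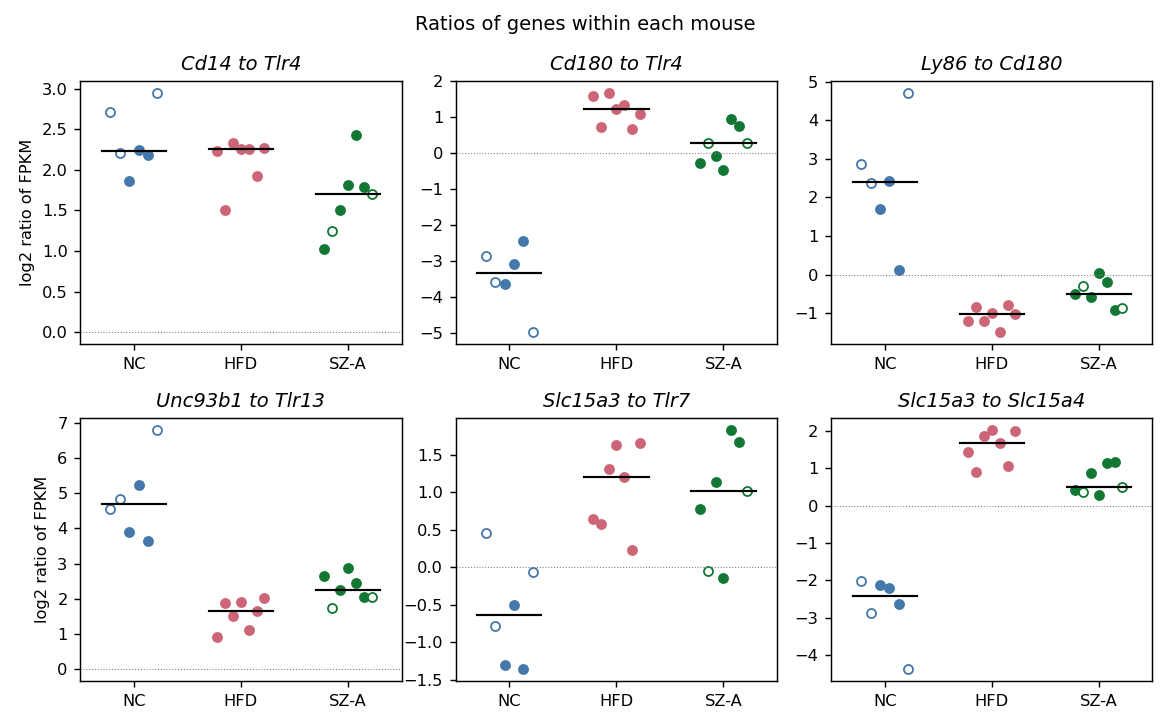
Log2 ratio of FPKM of 2 genes within each of the 20 mice for 6 of the 12 pairs tested (points), with the group median (line); open points are the 5 mice high in epithelium markers. Ly86 to Cd180 lies above 0 in NC and below 0 in HFD, and Slc15a3 to Slc15a4 the reverse, while Cd14 to Tlr4 overlaps in all groups.

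The order of the 8 genes by mean FPKM differed between groups. In NC mice Unc93b1, Cnpy3 and Cd14 led at 20.1, 19.3 and 18.6 FPKM, with no order among them beyond their spread, and Slc15a3 and Cd180 came last. In HFD mice Unc93b1 stood apart from the rest, followed by Cd14, and then Cd180 and Slc15a3 at 29.9 and 29.5 FPKM, which overlapped. Cnpy3, Ly86, Ly96 and Slc15a4 followed in that order, each overlapping its neighbour. In SZ-A mice Unc93b1 was again apart at the top, Cnpy3 and Cd14 overlapped below it, and the last 5 genes lay between 5.80 and 11.4 FPKM, each overlapping its neighbour.

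Within the SZ-A group, replicates 5 and 6 held the highest and second highest values of 7 of the 8 accessory genes, the exception being Cnpy3, and of 2 of the 4 receptors (Tlr7 and Tlr13). The same 2 mice had the highest sums of macrophage markers in their group, at 5299 FPKM in replicate 5 (2869 FPKM of it from Lyz2 alone) and 3870.2 FPKM in replicate 6. Those sums, over 14 of 14 listed markers, were 92.5 to 866 FPKM in NC mice, 3750.2 to 9950.0 in HFD mice and 1515 to 5299 in mice given SZ-A, with NC replicate 6 lowest and HFD replicate 1 highest. Of the 14 markers, 13 rose in HFD against NC and 11 fell in SZ-A against HFD. Adgre1, which encodes F4/80, changed by 5.16 and -1.86 (limma adjusted p = 4.9e-07 and 3.8e-04). Cd68, a lysosomal protein of macrophages, changed by 5.05 and -1.64 (limma adjusted p = 2.0e-08 and 0.0029). None of the 14 was at 0 in any mouse.

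Each accessory gene was also expressed relative to the mean log2 FPKM of the 14 macrophage markers in the same mouse. The median log2 fold change of these markers was 3.26 in HFD against NC and -1.35 in SZ-A against HFD. A gene that changed little, such as Cnpy3 (0.21 and 0.09), comes out lower in HFD than NC and higher in SZ-A than HFD. The share of all genes that differ in this way was not computed. On that scale Ly86 differed by -0.09 between HFD and NC and by -0.04 between SZ-A and HFD (exact permutation tests, adjusted p = 0.72 and 0.73). With a pseudocount of 1 the first became -0.56 and passed the threshold (exact permutation test, adjusted p = 0.018). Cd180 and Slc15a3 were higher relative to the markers in HFD than in NC, by 3.35 and 2.15 (exact permutation tests, adjusted p = 0.0013 for each), with no overlap between groups. Cd14, Ly96, Cnpy3 and Slc15a4 were lower relative to the markers in HFD than in NC, by 1.52, 2.51, 3.13 and 2.12 (exact permutation tests, adjusted p = 0.0013 for each), also without overlap. Unc93b1 was lower by 0.42 (exact permutation test, adjusted p = 0.028), a call lost when NC replicate 4, NC replicate 6, HFD replicate 1 or HFD replicate 5 was left out, with a pseudocount of 1, and without the mice high in epithelium markers.

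In SZ-A against HFD mice, Cd14 and Slc15a3 relative to the markers gave differences that did not pass the threshold, -0.12 and -0.33 (exact permutation tests, adjusted p = 0.24 and 0.16). That of Slc15a3 passed the threshold without SZ-A replicate 6. Cd180 was lower relative to the markers by 0.64 (exact permutation test, adjusted p = 0.0050). Ly96, Unc93b1, Cnpy3 and Slc15a4 were higher relative to the markers in SZ-A than in HFD, by 0.71, 0.23, 1.37 and 0.56 (exact permutation tests, adjusted p = 0.0087, 0.021, 0.0013 and 0.0056). In SZ-A against NC, 6 of the 8 passed, Cd180 and Slc15a3 higher and Cd14, Ly96, Cnpy3 and Slc15a4 lower in SZ-A (exact permutation tests). The median log2 fold change of the markers was 1.86 there, so a gene that changed little comes out lower. For this comparison too, the share of all genes that differ in this way was not computed. What part the number of macrophages had in the changes of these genes was not tested.

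**Figure D4:**
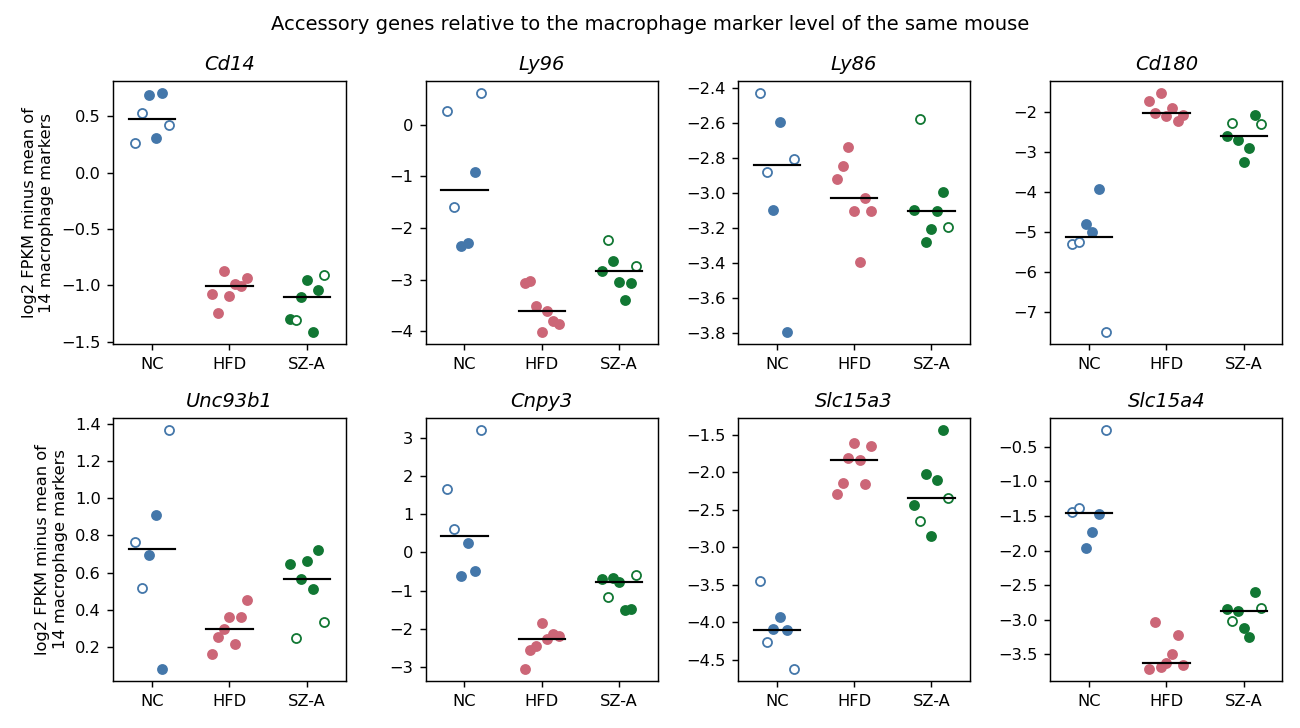
Log2 FPKM of each accessory gene minus the mean log2 FPKM of 14 macrophage markers in the same mouse (points), with the group median (line); open points are the 5 mice high in epithelium markers. Ly86 overlaps in all groups, Cd180 and Slc15a3 lie lower in NC than in HFD mice, and Cd14, Ly96, Cnpy3 and Slc15a4 lie higher in NC than in HFD mice.

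Markers of other immune cells summed to lower levels. B cell markers (3 of 7 analysed) summed to 0.184 to 9.55 FPKM in NC mice, 5.78 to 20.8 in HFD mice and 3.38 to 12.8 in mice given SZ-A, and Cd22 was the 1 marker of the 3 that passed, at 1.90 in HFD against NC and -1.03 in SZ-A against HFD (limma adjusted p = 4.3e-07 and 0.0036). Dendritic cell markers (5 of 7) summed to 1.05 to 18.8, 4.61 to 8.52 and 5.19 to 12.8 FPKM. Only 1 of the 5 passed, Flt3, which rose by 0.33 and fell by 0.22 in these comparisons (limma adjusted p = 0.0053 and 0.043). Flt3 was low, at a mean of 0.162 FPKM in NC mice. By sign alone, 2 of the 5 were higher and 3 lower in HFD than in NC. In SZ-A against HFD 4 were higher and 1 lower, so Flt3 went against the rest there. Neutrophil markers (3 of 8) summed to 0.617 to 14.1, 7.32 to 18.7 and 6.53 to 24.0 FPKM, where 2 of the 3 rose and 1 fell in HFD against NC and 1 of the 3 rose in SZ-A against HFD. T cell markers (7 of 7) summed to 2.21 to 9.19, 4.66 to 11.6 and 3.77 to 9.60 FPKM, and 0 of 7 passed in HFD against NC by limma (2 at an unadjusted p under 0.05) and 1 of 7, Cd8a, in SZ-A against HFD. Of the 8 adipocyte markers 0 passed by limma in either comparison (0 and 5 at an unadjusted p under 0.05). None of the markers analysed was at 0 in any mouse, and their part in the accessory genes' values was not tested.

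The accessory genes were set beside the rest of the pathway. Of 11 Toll-like receptors analysed, 9 rose in HFD against NC and 8 fell in SZ-A against HFD. After Tlr13 and Tlr8, the largest rise was in Tlr1, which pairs with TLR2 to sense lipopeptides, at 2.78, and it fell by 1.54 in SZ-A against HFD (limma adjusted p = 1.0e-07 and 3.0e-04). Of 21 other accessory and trafficking genes, 11 rose and 2 fell in HFD against NC, with a median log2 fold change of 1.19, and 10 fell in SZ-A against HFD, with a median of -0.51. The endosomal proteases that cut nucleic acid sensors led the rises: Ctsk by 5.71, Ctss by 4.93 and Ctsb by 3.05, together with Rab7b, a GTPase of late endosomes, by 4.43 (limma adjusted p from 1.7e-07 to 1.6e-06). The genes that fell were Slc15a2, a peptide transporter, at -1.04 and Hmgb1, a nuclear protein released from damaged cells, at -0.49 (limma adjusted p = 0.0014 and 0.0064). In SZ-A against HFD the largest falls were Ctsk at -1.72, Rab7b at -1.48, Ctss at -1.36 and Lgmn, an asparagine endopeptidase, at -1.31 (limma adjusted p from 0.0047 to 0.010).

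Downstream genes had smaller medians. Of 26 adaptors and signalling genes, 11 rose in HFD against NC, and 11 fell and 1 rose in SZ-A against HFD, with medians of 0.23 and -0.23. The largest changes were those of Pik3ap1, the adaptor BCAP, at 4.10 and -2.05 (limma adjusted p = 1.3e-07 and 4.6e-04), Irf5, a transcription factor downstream of TLR7, at 3.46 and -1.17 (limma adjusted p = 2.7e-06 and 0.011), and Irf8, a transcription factor of myeloid cells, at 2.28 and -0.92 (limma adjusted p = 1.1e-07 and 0.013). Ikbke, a kinase of the interferon pathway, rose by 1.58 in HFD against NC (limma adjusted p = 3.9e-06), and Ticam1, the adaptor TRIF, fell by 0.60 in SZ-A against HFD (limma adjusted p = 0.033). The kinase Irak2 was the 1 gene that rose in SZ-A against HFD, by 0.68 (limma adjusted p = 0.034). In SZ-A against NC, 6 of the 11 receptors, 8 of the 21 other accessory genes and 3 of the 26 adaptors and signalling genes were still higher at an adjusted p under 0.05, and 0 were lower by limma (0, 1 and 0 at an unadjusted p under 0.05).

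Across all 20 mice, the genes most like each accessory gene, by Pearson's r of log2(FPKM + 1) among 14716 genes, are given as a description. Mice of a group share diet and treatment, and no p is attached. For Cd180 they were Tlr13 (0.99), Nfam1 (0.99) and Dock2 (0.99), a Rac activator of leukocytes. For Ly86 they were Clec12a (0.98), an inhibitory lectin of myeloid cells, Lrrc25 (0.98) and P2ry6 (0.98). For Unc93b1 they were Ptafr (0.99), the receptor of platelet-activating factor, the antibody receptor Fcgr3 (0.99) and the complement gene C1qb (0.99). For Slc15a3 they were Slc37a2 (0.99), a transporter of sugar phosphates, Nckap1l (0.99) and the hexokinase Hk3 (0.99).

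The other 4 accessory genes had other neighbours. For Cd14 they were the adhesion gene Icam1 (0.95), Sgpl1 (0.95) and Mfap5 (0.95), a gene of matrix microfibrils. For Slc15a4 they were Mcl1 (0.95), Cytip (0.95) and the chemokine receptor Cxcr4 (0.94). For Ly96 the values were lower, with Chmp1b (0.89), Tmem19 (0.88) and Bloc1s6 (0.88). For Cnpy3 they were Ubald1 (0.95), Mbd3 (0.95) and Gm6793 (0.95). Among the accessory genes themselves, r was 0.98 for Cd180 with Slc15a3 and 0.96 for Cd180 with Ly86, 0.54 for Cd14 with Ly96 and -0.07 for Cd14 with Cnpy3. After subtracting group means, r was 0.74 for Cd180 with Ly86 and 0.19 for Cd14 with Ly96.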

How the data were processed

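RNA was taken from the eWAT of 20 mice, 6 NC, 7 HFD and 7 SZ-A. The authors purified poly(A) RNA, built 1 library per mouse with a NEBNext Ultra kit, aligned paired reads to mm10/GRCm38 with HISAT2, counted them with featureCounts 1.5.0-p3 per the submitters' processing notes, and deposited FPKM for 14776 genes, each above 0 in each mouse. That filter's rule is not given in the sources used here. Locations and exon lengths came from GENCODE M21. Deposited FPKM times exon length gave whole reads within 0.01 for 95.9% to 96.3% of values under 1000 reads, but for Cd14 and Unc93b1 in 1 of 20 mice only, so reads are approximate for those. Whether a read is a fragment is not known. Reads recovered on the deposited genes summed to 13565483 to 19383935 per mouse, and the library size implied by the values was 13938406 to 19591891. In some mice the sum exceeded the implied size, up to 1.12 times in HFD replicate 1. Recovered reads of some other genes may thus be too high.

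Groups were compared in pairs with limma 3.58.1 (R 4.3.3, eBayes with trend) on log2(FPKM + 1), with genes kept when the compared mice averaged 0.1 FPKM or more (14706, 14695 and 14718 genes), and with Benjamini-Hochberg adjustment. Calls used an adjusted p under 0.05, with or without a log2 fold change above 1.5 as in the study's methods. Log2 FPKM ratios of 12 pairs, and each gene against the macrophage markers, were compared by two-sided exact permutation tests without a pseudocount, adjusted over 36 and 24 tests. The fit was tested on simulated data. The members and lists were chosen with earlier results of these data known. Named were each accessory gene and the 4 receptors, up to 4 genes per list and direction with the largest change past the adjusted p, and the 3 genes most correlated with each accessory gene. Hsp90b1, Adgre1, Cd68, Adipoq and the overlapping genes Tmem132a and Mast4 were added after their values were seen. Tlr12, Ticam2, Tasl and some markers were not analysed here. Alternatives were a pseudocount of 0.1 (1 for ratios), no filter, a 1 FPKM filter, median-ratio scaling, quantile normalization, all 3 groups in the fit, voom on recovered reads, a replicate block and leaving out each mouse, and, after seeing the data, leaving out 5 mice or Cd163. Tables were made with Python 3.11.15, pandas 2.3.3, NumPy 2.4.6 and SciPy 1.17.1, figures with matplotlib 3.10.9. Same-numbered mice are not stated to be related, and their deviations correlated between -0.41 and 0.58, so the numbers were not taken as pairs.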

Additional observations from a re-analysis of the deposited data

How the results depend on the processing

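The counts of accessory genes past the adjusted p of 0.05 in HFD against NC (6) were between 6 and 7 under each alternative, and those in SZ-A against HFD (6) between 5 and 6. Past a log2 fold change of 1.5 as well, the count in HFD against NC (5) was 4 or 5, and in SZ-A against NC (3) it lay between 2 and 4. In SZ-A against HFD it was 1 and became 2, by the addition of Slc15a3, with a pseudocount of 0.1 and with voom on recovered reads, and lay between 1 and 2 when single mice were left out. In SZ-A against NC the count past the adjusted p was 4 and became 2 with the replicate block, where Ly86 and Unc93b1 were lost, and 2 without the mice high in epithelium markers; the cause was not tested. The paired fit with the replicate block left the other counts of accessory genes within 1.5 times the original. The log2 fold change of Cd14 in SZ-A against NC turned from 0.39 to -0.20 without the mice high in epithelium markers, on 3 NC and 5 SZ-A mice. Over all genes, 1172, 127 and 263 passed both rules in HFD against NC, SZ-A against HFD and SZ-A against NC. These became 2238, 458 and 415 with voom on recovered reads, 2036 and 337 in the first 2 comparisons with a pseudocount of 0.1, and 118 and 102 in the last with the replicate block and without the mice high in epithelium markers, while leaving out single mice gave 80 (HFD replicate 1) to 192 (SZ-A replicate 6) in SZ-A against HFD. By the adjusted p alone, 3349 genes in SZ-A against HFD became 2089, and 678 in SZ-A against NC became 1527, with all 3 groups in the fit, and the latter became 173 with the replicate block, 180 without the mice high in epithelium markers and 423 to 860 without single mice, with 441, 423 and 425 without NC replicate 1, NC replicate 2 and SZ-A replicate 6. The numbers of ratio tests past 0.05 (8 of 12 in each comparison) ran from 6 to 11, and those against the macrophage markers (7, 5 and 6 of 8) from 5 to 7. Of the 24 differences of ratios that passed, 12 shrank by over 1.5 times with a pseudocount of 1, 0 changed sign and 2 no longer passed. Depth limits Cd180, Slc15a3, Tlr7, Tlr8 and Tlr13 in NC replicate 6, which had from 1 to 9 reads of each, so ratios that include that mouse carry the largest counting error.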
